A study of Mus musculus with 8 samples.

Results

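The genes described here encode 10 surface proteins that carry the second signal of T cell activation: the ligands Cd274 (PD-L1), Pdcd1lg2 (PD-L2), Cd80 (B7-1) and Cd86 (B7-2), and the receptors Cd28, Icos, Ctla4, Pdcd1 (PD-1), Lag3 and Havcr2 (TIM-3). Members were chosen by symbol, and all 10 of them were found among the 19938 genes that the platform annotation ties to exactly 1 symbol. A gene with several transcript clusters was represented by the brightest one, which concerned Cd80. A T cell that recognises antigen needs Cd28 to be engaged by Cd80 or Cd86 on the antigen-presenting cell; Ctla4 competes for the same ligands and restrains the cell. Pdcd1, bound by Cd274 or Pdcd1lg2, and Lag3 and Havcr2 are inhibitory receptors of activated T cells, and Havcr2 is also known on macrophages and dendritic cells.

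RNA was hybridised to 8 single-colour Affymetrix Mouse Gene 1.0 ST arrays, 4 of a fraction enriched in tumor-initiating cells (TIC) and 4 of a CD24- fraction that the labels call non-tumor-initiating. Both fractions came by flow sorting from the same untransplanted mammary tumors, each below 1.0 cm in diameter, of FvB mice with the MMTV-Neu transgene, in which a mammary tumor virus promoter drives the Neu receptor in mammary epithelium. The tumors were N251, N260, N283 and an equal mixture of N222 and N229, so that 1 pair of arrays stood for 2 pooled animals' tumors. No source used here gives ages, treatments or the surface markers by which TIC were gated, and a protocol text lists 2 of the tumors under numbers that differ from the titles, which were followed.

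The mammary epithelial markers were bright in both fractions (8 of 8 measured, with a summed level of 14.79 to 14.86 in TIC arrays and 13.82 to 14.74 in CD24- arrays, as log2 of summed linear intensities). Macrophage markers had a summed level of 9.71 to 10.13 in TIC arrays and 13.60 to 15.98 in CD24- arrays. T cell markers had 9.50 to 9.98 in TIC arrays and 10.83 to 13.69 in CD24- arrays, and pan-leukocyte markers 9.42 to 9.64 in TIC arrays and 12.07 to 14.44 in CD24- arrays. Within each of these 3 immune lists the highest value belonged to the CD24- array of N251 and the lowest CD24- value to the pool. Cd53 and Laptm5 had the largest differences of the pan-leukocyte list (-5.50 and -5.26), and Ptpn6 the smallest (-1.08). In limma 4 of these 6 markers were lower at an adjusted p under 0.05, against 0.742% of all genes. The epithelial genes Krt8, Cldn7 and Elf5 differed by 0.43, 0.69 and 0.44, and 0 of the 8 epithelial markers passed that threshold. The median difference of the epithelial list was 1.14 in N251 and 0.04 to 0.24 in the other tumors. Cd24a, the antigen named in the sort, differed by 1.11 (limma adjusted p = 0.148). Lower quartiles over genes were 6.05 to 6.25 in the TIC arrays and 6.10 to 6.28 in the CD24- arrays, and a value under its array's quartile is called dim below. Beyond these sums and this quartile, levels of different genes were not compared, since probes differ in response. The brightest genes of a list weigh most in its sum.

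Havcr2 and Cd86 fell in the TIC fraction, by 11.7-fold and 9.83-fold on average, and Cd80 was 3.12-fold lower on average. The other 7 members differed by 0.06 to 0.81 on the log2 scale, and all 10 means were below 0, as were 40.5% of those of all genes. Of the 10 members 2 were called lower and 0 higher (limma, adjusted p under 0.05 over all genes), where 0.742% of all genes were called lower and 0.0502% higher. With the tumor as a block 3 were called lower and 0 higher, against 1.09% and 0.863% of all genes. At an unadjusted p under 0.05, 7 members were lower and 0 higher, against 6.24% and 8.02% of all genes, the shares behind every unadjusted count given here. The median difference was -0.73 (SD 0.53 over 4 tumors), against 0.04 for all genes. In bulk RNA, fewer cells of a type and less RNA per cell cannot be told apart.

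**Figure D1:**
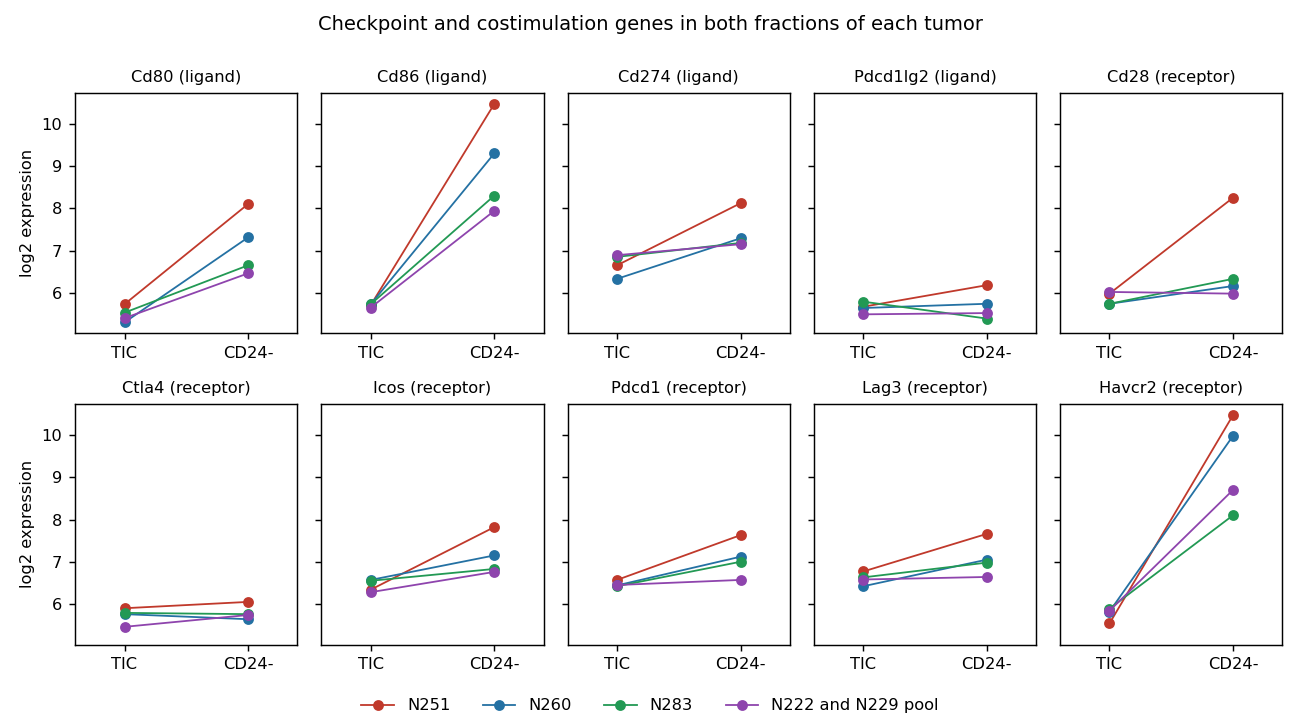
Log2 expression (y axis) of each of the 10 genes in the TIC and CD24- fractions (x axis), with 1 point per array and a line joining the arrays of a tumor. Cd86 and Havcr2 sit between 5.54 and 5.89 in every TIC array and between 7.94 and 10.47 in the CD24- arrays, whereas Ctla4 and Pdcd1lg2 overlap between the fractions.

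Havcr2, an inhibitory receptor of T cells and myeloid cells, had levels of 5.54, 5.82, 5.89 and 5.84 in the TIC fractions of N251, N260, N283 and the pool, against 10.47, 9.98, 8.10 and 8.70 in the CD24- fractions. All TIC values were dim and lay close together, and every CD24- value was at least 2 log2 units above them. The difference was -3.54 ± 0.46 (SE, n = 4 per fraction; limma adjusted p = 0.00982). It was largest in N251 (-4.93) and smallest in N283 (-2.22). The call was lost without both arrays of N260 (adjusted p = 0.204) and without the TIC array of N251, N283 or the pool (adjusted p = 0.0715, 0.0503 and 0.0509), while the difference stayed between -3.99 and -3.08 in every setting run.

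Cd86, a costimulatory ligand that dendritic cells, macrophages and B cells carry, had levels of 5.71, 5.73, 5.73 and 5.65 in the TIC fractions of N251, N260, N283 and the pool, against 10.47, 9.30, 8.30 and 7.94 in the CD24- fractions. The TIC values were all dim and spanned less than 0.1, whereas the CD24- values spread over more than 2 log2 units. The difference was -3.30 ± 0.47 (SE, n = 4 per fraction; limma adjusted p = 0.0159), and -4.76, -3.57, -2.57 and -2.29 in N251, N260, N283 and the pool. Cd86 was no longer called without tumor N260 (adjusted p = 0.292) or N283 (0.102), without the CD24- array of N260 (0.0816), or without the TIC array of N251, N260, N283 or the pool (0.0919, 0.0735, 0.0786 and 0.0743).

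Cd80, the second B7 ligand, is induced on activated antigen-presenting cells and binds Cd28 and Ctla4 as Cd86 does. Its levels were 5.73, 5.30, 5.53 and 5.40 in the TIC fractions of N251, N260, N283 and the pool, against 8.10, 7.31, 6.65 and 6.46 in the CD24- fractions. The groups did not overlap, and the 4 TIC values were dim. The difference of -1.64 ± 0.32 (SE, n = 4 per fraction) missed the threshold in the unblocked fit (limma adjusted p = 0.0573) and passed it when tumor was blocked (0.0425). It was also called without the CD24- array of N251 (-1.32, adjusted p = 0.0155) or of the pool (-1.86, adjusted p = 0.0119). By tumor the difference of Cd80 was -2.37, -2.02, -1.12 and -1.06. A second transcript cluster of Cd80 differed by -1.13, -0.52, -0.42 and -0.40 in the same tumors, with a mean of -0.62 ± 0.26 (SE) that was not called when all 35556 clusters were tested (limma adjusted p = 0.451). Both clusters of Cd80 pointed the same way and differed in size. Their means over the 8 arrays were nearly equal, 6.31 for the cluster used and 6.29 for the second. With a gene's clusters averaged, Cd80 differed by -1.13 and was not called (limma without the block, adjusted p = 0.132).

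Macrophage markers moved with these 3 genes: 9 of 10 were called lower and 0 higher, against 0.742% and 0.0502% of all genes. All 10 were lower in all 4 tumors, as were 11.8% of all genes. The median difference of the macrophage markers was -4.93, and Lyz2 and Mpeg1 had the largest differences (-5.77 and -5.43). Their defining marker Csf1r differed by -5.06. Of the dendritic cell markers 2 of 8 were called lower, Siglech (-1.59) and Cd209a (-1.13), and 0 higher, against the same shares of all genes. The list's median was -0.40, and 7 of its 8 means were below 0, as were 40.5% of those of all genes. Itgax differed by -3.00 and was not called (adjusted p = 0.0553), and the other 5 lay between -0.46 (Ccr7) and 0.07 (Zbtb46). The summed level of the list was 9.32 to 9.50 in TIC arrays and 9.89 to 11.56 in CD24- arrays. Of 4 B cell markers 0 were called by limma without the block (2 lower and 0 higher at an unadjusted p under 0.05, where all genes gave 6.24% and 8.02%). With the block 1 was called lower, Cd79b (-1.25, limma adjusted p = 0.0313), against 1.09% of all genes. Ms4a1, which marks mature B cells, was dim in all 8 arrays and differed by -0.49. B cell markers had a summed level of 7.84 to 8.14 in TIC arrays and 8.23 to 9.22 in CD24- arrays. The part of these cells in the differences of Havcr2, Cd86 and Cd80 was not tested.

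For the 3 members that differed by at least 1, the genes with the most similar profile over the 8 arrays were found by the root mean square distance of log2 values, after each gene was centred on its own mean. The nearest to Cd86 were Milr1, Sla and Rasgrp3 (distances of 0.13, 0.15 and 0.16). Those nearest to Havcr2 were Ccr1, Adap2 and Rasgrp3 (0.24, 0.27 and 0.29), and those nearest to Cd80 were Fcgr4, Cacna1d and Rhoh (0.12, 0.13 and 0.13). Genes chosen for such profiles have differences like those of the members by the choice itself. Milr1, Sla and Rasgrp3 differed by -3.21, -3.17 and -3.15 and were called lower, as were Ccr1 (-3.55), Adap2 (-3.53) and Fcgr4 (-1.60). Cacna1d (-1.57) and Rhoh (-1.47) were not called (limma adjusted p = 0.107 and 0.123).

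Promoters are shown for 2 members with large differences, Havcr2 and Cd80, and for the neighbouring ligand genes Cd274 and Pdcd1lg2, whose differences were smaller. The sequences are those of RefSeq on GRCm38.p6 and run from 250 bases before to 50 bases after the annotated start, 5′ to 3′; 6 of the 10 members had an entry, and Cd86 was among those without one. Capitals mark matches, on either strand, to 3 motifs: GAGGAA, the core bound by the myeloid factor PU.1; GAAANNGAA, the core of interferon regulatory factor sites; and TTCNNNGAA, the STAT site known as GAS. The 3 motifs shared no bases in these promoters.

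Havcr2, chr11:46454681-46454980, plus strand: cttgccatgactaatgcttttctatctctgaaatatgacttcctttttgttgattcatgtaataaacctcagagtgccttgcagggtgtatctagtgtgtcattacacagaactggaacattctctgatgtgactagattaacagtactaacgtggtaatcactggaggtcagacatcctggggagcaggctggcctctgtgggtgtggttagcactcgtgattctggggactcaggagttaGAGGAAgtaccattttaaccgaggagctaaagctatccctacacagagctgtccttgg
Cd80, chr16:38458683-38458982, plus strand: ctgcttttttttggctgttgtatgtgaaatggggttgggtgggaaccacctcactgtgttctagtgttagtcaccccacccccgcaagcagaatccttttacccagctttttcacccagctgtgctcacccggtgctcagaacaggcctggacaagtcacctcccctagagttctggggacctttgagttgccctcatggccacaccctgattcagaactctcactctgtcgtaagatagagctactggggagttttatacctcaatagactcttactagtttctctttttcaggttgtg
Cd274, chr19:29367188-29367487, plus strand: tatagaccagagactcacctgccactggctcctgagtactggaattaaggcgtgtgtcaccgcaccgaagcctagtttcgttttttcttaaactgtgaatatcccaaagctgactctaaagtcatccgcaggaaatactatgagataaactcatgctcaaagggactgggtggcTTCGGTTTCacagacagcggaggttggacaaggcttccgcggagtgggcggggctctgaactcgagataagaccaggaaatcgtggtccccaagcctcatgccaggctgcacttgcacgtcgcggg
Pdcd1lg2, chr19:29410669-29410968, plus strand: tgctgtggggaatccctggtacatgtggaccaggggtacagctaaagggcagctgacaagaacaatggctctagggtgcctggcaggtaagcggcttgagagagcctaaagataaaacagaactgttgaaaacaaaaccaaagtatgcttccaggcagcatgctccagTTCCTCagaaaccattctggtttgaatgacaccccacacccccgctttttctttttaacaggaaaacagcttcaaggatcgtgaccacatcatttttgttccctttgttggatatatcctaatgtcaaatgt

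Havcr2 held 1 match to GAGGAA, which began 8 bases before the start, and Pdcd1lg2 held 1 match on the opposite strand. Cd274 held 1 match to GAAANNGAA, and Cd80 held none of the 3 motifs in this window. Of the members with an entry that are not shown, Pdcd1 held 2 matches to GAGGAA and Ctla4 held 1 to GAAANNGAA. Among 32851 promoters of the same length 28.3% held GAGGAA, 8.56% GAAANNGAA and 8.3% TTCNNNGAA. The matches describe these letters and show no binding.

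The 2 ligands of Pdcd1 lie side by side on chromosome 19 in the RefSeq table. Cd274, which interferon gamma is known to induce on tumor and myeloid cells, had levels of 6.65, 6.33, 6.85 and 6.89 in the TIC fractions of N251, N260, N283 and the pool, against 8.12, 7.29, 7.18 and 7.15 in the CD24- fractions. Every TIC value was below every CD24- value, none was dim, and the CD24- array of N251 stood above the rest. The difference was -0.75 ± 0.23 (SE, n = 4 per fraction) and was not called (limma adjusted p = 0.192, and 0.138 with the block). By tumor it was -1.47, -0.96, -0.33 and -0.26, and without N251 it was -0.52.

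Pdcd1lg2, a ligand found mainly on dendritic cells and macrophages, had levels of 5.67, 5.64, 5.79 and 5.49 in the TIC fractions of N251, N260, N283 and the pool, against 6.18, 5.74, 5.39 and 5.52 in the CD24- fractions. All 8 values were dim and the groups overlapped. The difference of -0.06 ± 0.17 (SE, n = 4 per fraction; limma adjusted p = 0.927) was not called and turned to 0.09 without N251.

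Of 6 interferon gamma pathway genes analysed, 0 were called by limma without the tumor block and 0 with it. Without the block 2 were lower and 0 higher at an unadjusted p under 0.05, where all genes gave 6.24% and 8.02%. Ifng itself differed by -0.45 ± 0.24 (SE). The receptor chains Ifngr1 and Ifngr2 differed by -1.46 ± 0.35 and -0.76 ± 0.24 (adjusted p = 0.116 and 0.206), with levels in TIC arrays of at least 9.29 and 10.45. Both were lower in all 4 tumors, as were 11.8% of all genes. The kinases Jak1 and Jak2 differed by 0.06 and -0.05 and the factor Irf1 by -0.38.

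Cd28, Ctla4 and Icos follow each other on chromosome 1. Cd28, the principal costimulatory receptor of T cells, had levels of 5.98, 5.74, 5.74 and 6.02 in the TIC fractions of N251, N260, N283 and the pool, against 8.25, 6.16, 6.33 and 5.98 in the CD24- fractions. All 4 TIC values and 1 CD24- value were dim. Only the CD24- array of N251 stood clear of the TIC range by more than 1 log2 unit, and the groups overlapped. The difference of -0.81 ± 0.44 (SE, n = 4 per fraction; limma adjusted p = 0.445) became -0.32 without N251.

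Icos, which is induced on activated T cells and costimulates them, had levels of 6.34, 6.57, 6.55 and 6.28 in the TIC fractions of N251, N260, N283 and the pool, against 7.82, 7.15, 6.83 and 6.76 in the CD24- fractions. The groups did not overlap, although the gap between the nearest values was under 0.2. Its difference of -0.71 ± 0.22 (SE, n = 4 per fraction) was not called (limma adjusted p = 0.201) and was -0.45 without N251. Icosl, the ligand of Icos, differed by -1.96 ± 0.52 (adjusted p = 0.148).

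Ctla4, the inhibitory counterpart of Cd28 and a constitutive protein of regulatory T cells, had levels of 5.90, 5.76, 5.79 and 5.46 in the TIC fractions of N251, N260, N283 and the pool, against 6.05, 5.64, 5.76 and 5.74 in the CD24- fractions. All 8 values were dim and the groups overlapped. The difference was -0.07 ± 0.13 (SE, n = 4 per fraction; limma adjusted p = 0.876), with 2 tumors lower and 2 higher. Regulatory T cell markers were not called either (0 of 4 in limma, without and with the block; 1 lower and 0 higher at an unadjusted p under 0.05 without it, against 6.24% and 8.02% of all genes). Among them the lineage factor Foxp3 differed by -0.16, Il2ra by -1.18 and Ikzf4 by 0.30, and the list's summed level was 9.21 to 9.53 in TIC arrays and 9.23 to 9.38 in CD24- arrays.

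Pdcd1, the receptor of Cd274, had levels of 6.57, 6.44, 6.42 and 6.45 in the TIC fractions of N251, N260, N283 and the pool, against 7.63, 7.12, 7.00 and 6.57 in the CD24- fractions. The TIC values were nearly level, and the CD24- value of the pool lay within their range to 2 decimals. The difference was -0.61 ± 0.19 (SE, n = 4 per fraction) and negative in all 4 tumors, and it was not called (limma adjusted p = 0.215, and 0.115 with the block). It was called without the CD24- array of the pool (-0.78, adjusted p = 0.0329).

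Lag3, an inhibitory receptor that binds MHC class II and is the neighbour of Cd4 on chromosome 6, had levels of 6.77, 6.42, 6.63 and 6.58 in the TIC fractions of N251, N260, N283 and the pool, against 7.66, 7.05, 6.98 and 6.64 in the CD24- fractions. The pool's CD24- value fell inside the TIC range. The difference of -0.48 ± 0.20 (SE, n = 4 per fraction) had the same sign in all 4 tumors and was not called (limma adjusted p = 0.319), while Cd4 differed by -1.25 (adjusted p = 0.141).

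T cell markers were set beside the receptors that T cells carry. Of 9 measured markers 1 was called lower by limma without the block, Cd3g of the antigen receptor complex (-5.62, adjusted p = 0.00225), against 0.742% of all genes. With the block 2 were called lower, against 1.09% of all genes, the second being Thy1 (-1.73, adjusted p = 0.0416). Cd3e, at -2.43, and the co-receptor gene Cd8a, at -2.27, were not called, and the median of the list was -1.73. The smallest differences of the list were those of Cd3d (-0.84), Zap70 (-0.72) and Cd247 (-0.17). The members Cd28, Icos, Ctla4, Pdcd1 and Lag3 lay between -0.81 and -0.07, and the remaining member receptor, Havcr2, at -3.54. No test was made of the difference between these groups, and the part of T cell number in the members' values was not tested.

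Tumors differed in the size of the members' differences. The members' median was -1.48 for N251, -0.65 for N260, -0.46 for N283 and -0.27 for the pool, and the pan-leukocyte medians of the same tumors were -5.35, -5.05, -3.86 and -2.54. Lower values in all 4 tumors were found for 7 of the 10 members, against 11.8% of all genes, and higher values in all 4 for 0, against 23.2%. The fractions did not overlap, with TIC lower, for 5 members (Cd274, Cd80, Cd86, Icos and Havcr2), against 4.68% of all genes, and with TIC higher for 0, against 5.19%. For all 10 members the highest of the 4 CD24- arrays was that of N251, which held for 37.0% of all genes. Ptprc, which encodes the leukocyte antigen CD45, had levels of 11.74, 10.87, 9.52 and 8.61 in the CD24- fractions of N251, N260, N283 and the pool. Cd86, Cd80, Cd274, Icos, Pdcd1 and Lag3 had the same order, and Cd28, Ctla4, Pdcd1lg2 and Havcr2 did not. Havcr2 was higher in the pool than in N283. The share of all genes with this order was not counted. Epcam, an epithelial adhesion gene, differed by 1.13 in N251 and by 0.08 to 0.20 in the others. Whether the makeup of the sorted cells accounts for the spread between tumors was not tested.

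**Figure D2:**
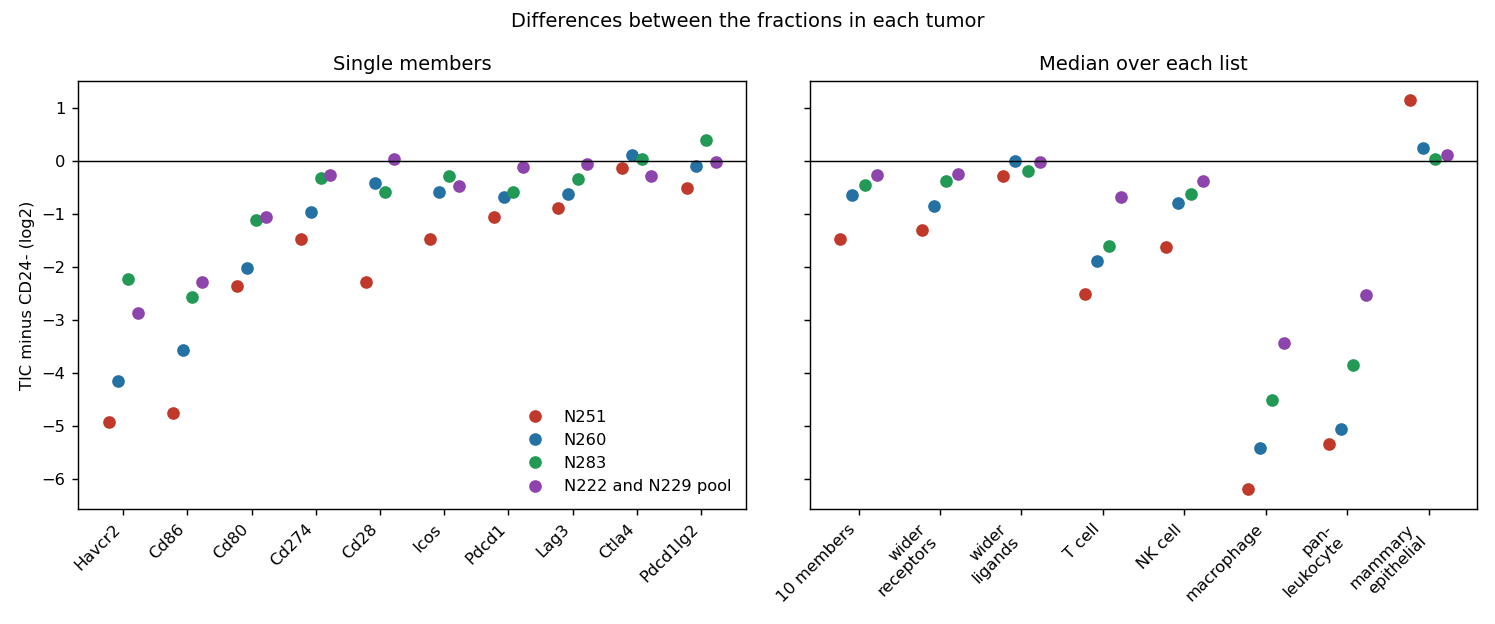
Difference between TIC and CD24- (y axis, log2) in each tumor, with 1 point per tumor or pool; the left panel shows the 10 members and the right panel the median of each list. N251 is lowest for every member except Ctla4 in the left panel, and the macrophage medians in the right panel lie between -6.20 and -3.43.

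A wider list held 34 other ligands and receptors of T cell costimulation and inhibition, all of them measured. Without the block 0 of the 34 were called by limma (15 lower and 1 higher at an unadjusted p under 0.05, against 6.24% and 8.02% of all genes). With it 2 were called lower and 0 higher, against 1.09% and 0.863% of all genes. The median difference was -0.22 over the list, -0.67 over the 17 genes filed as receptors and -0.11 over the 17 filed as ligands, against 0.04 for all genes. The filing was not strictly molecular. For example, the receptor genes Cd40 and Tnfrsf14 stood among the ligands, and Cd40lg, the ligand of Cd40, among the receptors. Means below 0 were found for 17 of the 17 genes filed as receptors and 10 of the 17 filed as ligands, against 40.5% of all genes. The difference between these 2 parts of the list was not tested.

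Cd48, a ligand of the receptor Cd244a on lymphocytes and myeloid cells, was at 5.90, 5.23, 5.37 and 5.02 in the TIC fractions of N251, N260, N283 and the pool, against 9.42, 8.79, 7.86 and 6.42 in the CD24- fractions. Its difference of -2.74 ± 0.56 (SE, n = 4 per fraction) fell short without the block (limma adjusted p = 0.0642) and was past it under the block (0.0376). Slamf6, a self-binding receptor of lymphocytes, had a difference of -1.99 ± 0.48 (adjusted p = 0.12) and was likewise called under the block (0.0476). Both genes were lower in all 4 tumors, and the fractions did not overlap for either. Of the 34 genes of the wider list 16 were lower in all 4 tumors, against 11.8% of all genes. Without overlap 12 of the 34 were lower, against 4.68% of all genes.

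Cd226, Cd96 and Tigit are receptors of T and NK cells that share the ligand Pvr; Cd226, which activates, and Tigit, which inhibits, also bind Nectin2. Cd226 differed by -2.67 ± 0.60 (SE) and Cd96 by -2.55 ± 0.56, neither of them called (limma adjusted p = 0.095 and 0.0887, and 0.0732 and 0.0924 with the block). For Tigit the difference was -1.19 ± 0.30 (adjusted p = 0.133; blocked, 0.0556). All 3 receptors were lower in 4 of 4 tumors, without overlap between the fractions. They were named for the size of their differences or after their values were seen. Of all genes 11.8% were lower in all 4 tumors and 4.68% were lower without overlap. The ligand Nectin2 was at 9.12, 8.96, 9.02 and 8.93 in the TIC fractions of N251, N260, N283 and the pool, against 8.07, 8.59, 8.95 and 8.92 in the CD24- fractions. Pvr differed by 0.19 ± 0.11 (adjusted p = 0.451) and Nectin2 by 0.38 ± 0.18 (adjusted p = 0.393, and 0.15 on the log2 scale without N251). Of 4 NK cell markers 0 were called by limma without or with the block (3 lower and 0 higher at an unadjusted p under 0.05 without it, against 6.24% and 8.02% of all genes). Ncr1 differed by -2.39 and Klrk1 by -1.15. Their summed level was 7.03 to 7.21 in TIC arrays and 7.41 to 10.17 in CD24- arrays, and their part in these values was not tested.

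Vtcn1 and Vsir belong to the B7 family of ligands and inhibit T cells. Vtcn1 (B7-H4), known from breast epithelium and its tumors, was at 8.82, 8.10, 8.96 and 8.98 in the TIC fractions of N251, N260, N283 and the pool, against 7.65, 7.88, 8.33 and 7.40 in the CD24- fractions. It was higher in 4 of 4 tumors, as were 23.2% of all genes. The groups overlapped, and the difference of 0.90 ± 0.25 (SE, n = 4 per fraction) was not called (limma adjusted p = 0.159, and 0.113 with the block). For Vsir (VISTA), known from myeloid cells, the difference was -1.90 ± 0.42 (adjusted p = 0.0886; blocked, 0.0916). The TIC values of 8.60 to 9.54 were below all CD24- values, which ran between 10.12 and 12.05, and they were not dim. Cd3d, Zap70, Cd247, Cd4, Cd8a, Thy1, Tigit, Pvr, Nectin2 and Vtcn1 were singled out after their values were seen.

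**Figure D3:**
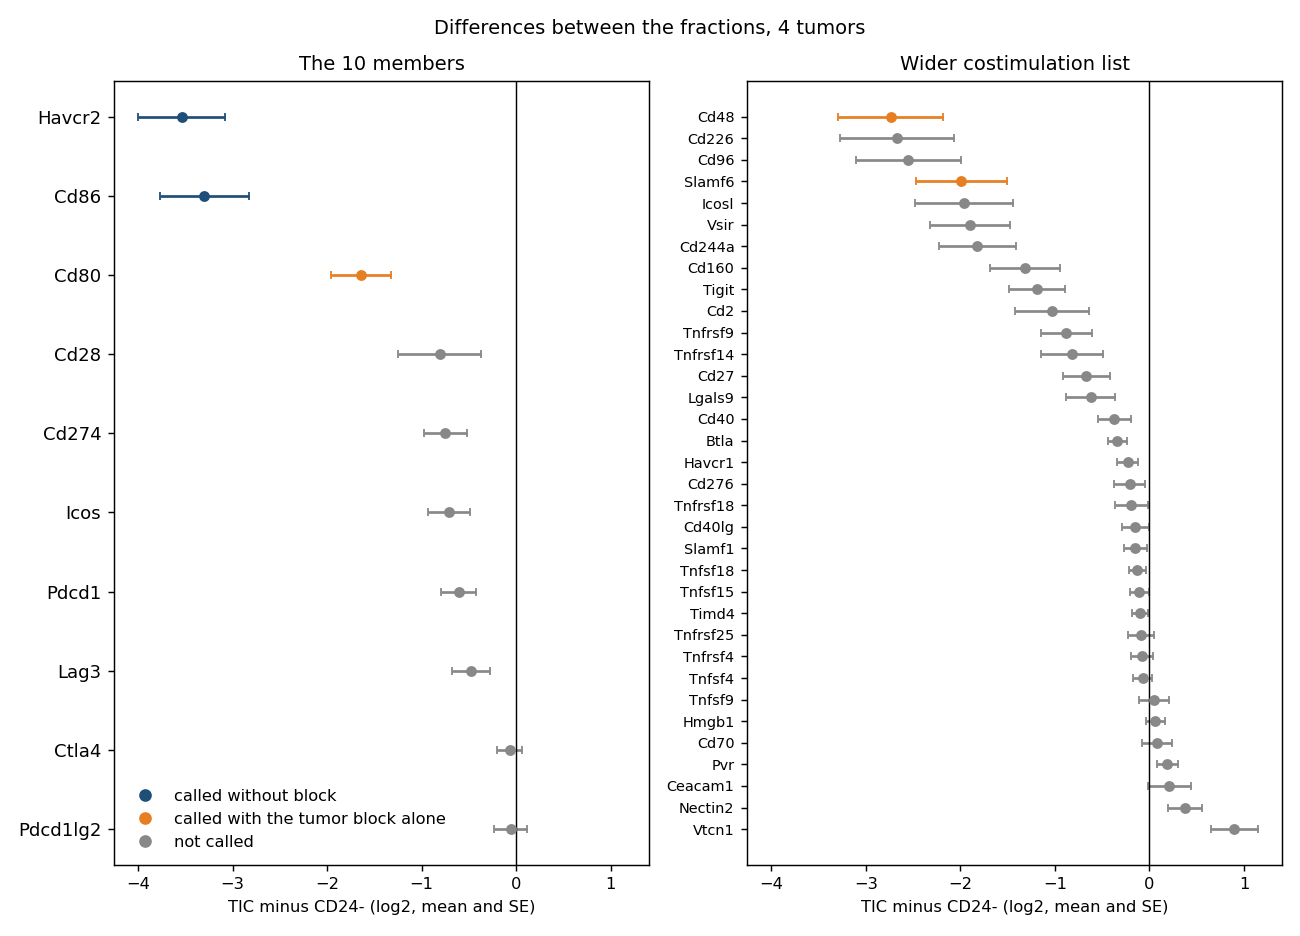
Difference between TIC and CD24- (x axis, log2, mean with SE as bars, 4 arrays per fraction) for the 10 members on the left and the 34 genes of the wider list on the right, ordered by size. Colour marks genes called without the block (Havcr2 and Cd86), those called with the tumor block alone (Cd80, Cd48 and Slamf6) and those not called; Vtcn1, at 0.90, is the highest of the wider list.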

How the data were processed

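The deposited values are log2 expression values per transcript cluster, deposited by the authors after RMA and with Partek, as the submitters' processing notes name them (per the labels). No source used here states the software versions, the settings or the build. Of 35556 clusters 21789 carried 1 symbol, of which 21698 matched a RefSeq table of GRCm38.p6 by gene identifier and 0 changed name; no other columns of samples were present.

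Differences, TIC minus CD24-, were fitted over 19938 genes in R 4.3.3 with lmFit and eBayes of limma 3.58.1, without a block or filter. Called genes had an adjusted p (Benjamini-Hochberg) under 0.05. Each tumor gave both fractions, as the labels state, and the deviations of its 2 arrays from the fraction means correlated across genes (0.32 in N251, 0.43 in N260, 0.30 in N283, 0.56 in the pool), so values with the tumor as a fixed block are given where they change a call. RMA gives no detection calls, and background compresses differences of dim genes. The fits were checked on simulated data with the same spread in both fractions. The check does not cover unequal spread such as that of Cd86 (SD 0.04 in TIC and 1.13 in CD24- arrays).

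Members and lists were chosen with earlier results of these data known. Named are all members, wider-list genes called with or without the block or among the 6 largest differences, the 2 largest and the defining marker of each marker list, the interferon list and the 3 nearest profiles; motifs, and some further genes as stated, were chosen after values were seen. The number of arrays limits the precision.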

Additional observations from a re-analysis of the deposited data

Results flagged for a closer look

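In the CD24- fraction of N251, Cd274 stood at 8.12, far from the 7.15 to 7.29 of the other 3 CD24- arrays, and Cd28 stood at 8.25, where the others lay between 5.98 and 6.33. These were the 2 of 42 groups of 4 arrays, over 21 named genes, in which 1 array lay that far from the rest. Chance gives about 1 in 20, so the number of flagged groups was near the number that chance gives. The N251 array also had the highest summed levels of macrophage, T cell and pan-leukocyte markers among the CD24- arrays, and their part in both values was not tested.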

How the results depend on the processing

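Differences of Havcr2 ranged from -3.99 to -3.08, of Cd86 from -3.65 to -2.81 and of Cd80 from -1.86 to -1.13 over all settings. The 2 members called lower became 3 with the tumor as a fixed or a random replicate block, 4 with array weights, 1 at an adjusted p under 0.01 and 1 among genes at or above the median level, where Havcr2 is the only member left and the median difference is -3.54. With all clusters tested, a setting chosen after seeing the data, 2 members were called, and 0 with the block as well. Leaving out an array or tumor gave 0 to 4 members lower and a median of -0.87 to -0.45. The wider list had 0 lower genes in the reported fit, 2 with the block, 11 (and 1 higher, Vtcn1) when the block was random, 11 under array weights, and 0 to 11 without single arrays or tumors; the highest count followed removal of the pool's CD24- array. Over all genes, 148 lower and 10 higher became 218 and 172 with the block, 606 and 430 under the random one, 778 and 191 under array weights, 58 and 0 at an adjusted p under 0.01, and 8 to 583 and 0 to 46 without single arrays or tumors. Higher counts were 26 after median centring, 5 among brighter genes and 2 at 2-fold or more. When N251 was dropped from the blocked fit, chosen after seeing the data, 480 genes were lower and 360 higher, with 7 lower in the wider list and 3 among the members. The sign of Pdcd1lg2 turned with array weights (0.051) and without N251 (0.093 with or without the replicate block, and 0.1 without its CD24- array), and single arrays or tumors left out gave -0.211 to 0.1. That of Ctla4 turned with array weights (0.051), without the pool (0.001, and 0.019 without its TIC array) and without the CD24- array of N251 (0.015), and single arrays or tumors left out gave -0.131 to 0.019. Over the 19938 genes the fixed block changed the call of Cd80 and of no other member. The causes were not tested.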
